A study of Mus musculus with 2 samples.

Results

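Muscle calcium release and reuptake genes were followed in mouse teratomas, the tumours of many tissue types that grow from transplanted pluripotent stem cells. The 7 genes were chosen by name for their place in excitation-contraction coupling: Cacna1s, Cacng1, Ryr1, Trdn, Casq1, Atp2a1 and Pvalb. They and the gene lists used below were chosen with earlier results of these data known. All 7 have probe sets that carry their symbol alone in the platform's annotation, 12 of the 22690 probe sets on the array, and they are 7 of the 12393 genes that could be named in this way. The B6 ES pool was RNA of 2 tumours formed by embryonic stem cells of the C57BL/6 (B6) mouse strain. The EiPS pool was RNA of 2 tumours, described by the submitters as regressing, that had grown from EiPS cells, labelled 1E12 iPS, which are induced pluripotent stem cells, also of strain B6. In both groups the cells were placed under the skin of male B6 mice and the tumours were taken 6 weeks later. No genetic alteration, drug or host age is given for either group in the labels, and each group has 1 named source of cells. Because hosts and grafted cells are of the same strain, RNA of host tissue in a tumour cannot be told apart from RNA of the graft.

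In a skeletal muscle fibre, the fibre's own action potential, set off at the junction with the nerve, runs along the surface membrane into the transverse tubules. A voltage-sensing calcium channel senses it there. This sensor pulls open the ryanodine receptor of the facing sarcoplasmic reticulum, calcium flows out of a store held by calsequestrin, and the filaments contract. The fibre relaxes when a calcium pump returns the ion to the store, and fast fibres add a soluble calcium buffer in the cytosol. The junction of tubule and store is called the triad.

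Each group has 1 array, so the differences below lack a replicate check and were not tested. The values compare these 2 pools of tumours, and the number of arrays limits their precision. Signals are MAS5 intensities on a linear scale, and differences are given as log2 EiPS signal minus log2 B6 ES signal. A signal floor of 25.8 was taken from receptors of smell and taste, which are held to be silent in such tissue, and 10962 genes were above it on 1 array or both. The SD of the differences among probe sets of the same gene was 0.40 (log2) over 3805 genes, which leaves out variation between tumours, arrays and labelling. It was 0.54 for signals under 100, 0.34 for signals from 100 to 1000 and 0.19 above 1000. The median difference over all compared genes was 0.07.

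The table of RefSeq promoters (build GRCm38.p6) held 5 of the 7 genes, and no entry was found for Trdn and Cacng1. In the 250 bases before the annotated start, 3 of the 5 genes carry the hexamer CAGCTG, an E-box of the kind that myogenic transcription factors can bind in muscle promoters. Those stretches are shown because they hold the hexamer. All 5 genes, with or without it, were lower in the EiPS pool. Each is written 5′ to 3′ along the gene, with CAGCTG in capitals. The Atp2a1 stretch is chr7:126463074-126463323 on the minus strand, that of Casq1 is chr1:172219896-172220145 on the minus strand, and that of Cacna1s is chr1:136052561-136052810 on the plus strand.
Atp2a1: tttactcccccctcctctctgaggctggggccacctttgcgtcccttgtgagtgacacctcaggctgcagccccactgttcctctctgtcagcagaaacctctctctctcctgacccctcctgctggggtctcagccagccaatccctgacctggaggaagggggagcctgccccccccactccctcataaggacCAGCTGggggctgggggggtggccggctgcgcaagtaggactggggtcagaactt
Casq1: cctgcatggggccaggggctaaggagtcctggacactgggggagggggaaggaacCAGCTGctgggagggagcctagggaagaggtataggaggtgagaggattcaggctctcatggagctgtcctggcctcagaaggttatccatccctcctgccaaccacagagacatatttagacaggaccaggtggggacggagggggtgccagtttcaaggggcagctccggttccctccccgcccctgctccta
Cacna1s: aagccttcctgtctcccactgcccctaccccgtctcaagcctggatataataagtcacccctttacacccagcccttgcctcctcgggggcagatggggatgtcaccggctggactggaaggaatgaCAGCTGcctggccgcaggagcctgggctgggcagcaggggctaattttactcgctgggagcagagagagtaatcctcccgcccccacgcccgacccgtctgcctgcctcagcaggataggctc
The hexamer begins 55 bases before the start of Atp2a1, 195 before that of Casq1 and 123 before that of Cacna1s. It reads the same on both strands and is 1 form of the general E-box CANNTG, so every CAGCTG also counts as a CANNTG. Of 32851 mouse promoters of this length, 13.001% hold CAGCTG and 66.2% hold CANNTG on either strand. Counted in the same way, 3 of the 6 promoters of the 5 genes hold CAGCTG, as do 10 of 23 promoters found for a list of skeletal fibre markers. Casq1 and Cacna1s have 2 CANNTG matches each and Atp2a1 has 1. Neither the Ryr1 stretch nor the 2 annotated for Pvalb hold CAGCTG, while 1 of the Pvalb stretches has a match to the MEF2 motif, which 2.92% of all promoters hold. These letter matches describe the sequence and show no binding.

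All 7 genes had lower signals in the EiPS pool, and 6 of the 7 were at least 2-fold lower. Across the array, 3.05% of compared genes were at least 2-fold lower and 43.8% were lower by any amount. The calcium pump gene Atp2a1 and the triadin gene Trdn were more than 4-fold lower, against 0.347% of all compared genes. For Trdn this holds for its brightest probe set. With the mean over its probe sets its difference was -1.79, short of 4-fold. That mean counts 1451940_x_at, under the floor in the EiPS pool, at its bound. None was higher, while 5.79% of all compared genes were at least 2-fold higher. The median difference of the 7 genes was -1.66. Scaled signals of a tumour's bulk RNA show relative amounts. In them a smaller share of muscle cells and less RNA per muscle cell cannot be told apart.

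**Figure D1:**
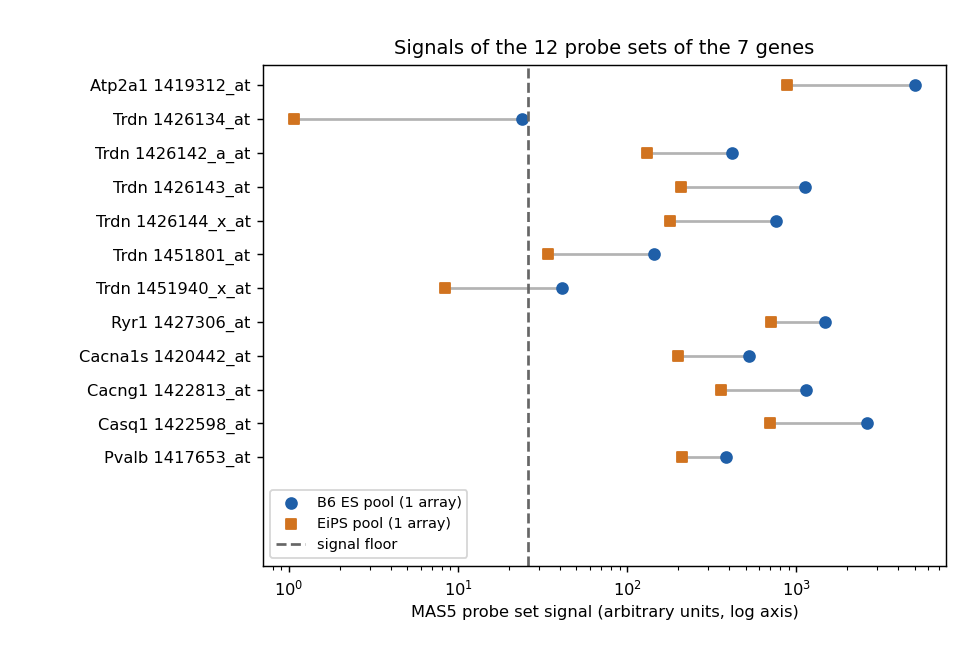
MAS5 signal (log axis, arbitrary units) of each of the 12 probe sets of the 7 genes on the B6 ES array (circles) and the EiPS array (squares), 1 array each, with the signal floor as a dashed line. All 12 squares lie left of their circle, and 10 of the 12 pairs lie above the floor on both arrays.

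Cacna1s encodes the pore and voltage-sensing subunit of the skeletal muscle L-type calcium channel. Its signal was 528 in B6 ES tumours and 199 in EiPS tumours. The EiPS value was thus 37.8% of the B6 ES value, 2.65-fold lower.

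Cacng1 encodes the gamma subunit of the same channel. Its signal was 1138 in B6 ES tumours and 360.5 in EiPS tumours, 3.16-fold lower. The differences of both channel subunits, -1.40 and -1.66, were closer to each other than the SD among probe sets of the same gene.

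Ryr1 encodes the calcium release channel of the skeletal sarcoplasmic reticulum. Its signal was 1465 in B6 ES tumours and 710.4 in EiPS tumours, 2.06-fold lower. It was thus just past 2-fold, and was -0.98 on the log2 scale when 64 was added to every signal.

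Trdn encodes triadin, which anchors calsequestrin to the release channel. Its brightest probe set, 1426143_at, read 1128 in B6 ES tumours and 209 in EiPS tumours, 5.39-fold lower. Trdn is the 1 gene of the 7 with more than 1 probe set. Its 6 probe sets were designed on 3 cDNA records and share parts of 1 gene, so they are not independent. All 6 were lower in the EiPS pool.

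The other Trdn probe sets gave smaller differences or only bounds. Probe set 1426144_x_at read 757 in B6 ES tumours and 178 in EiPS tumours, a difference of -2.09. Probe set 1451801_at read 143 and 34.1 in the same order, a difference of -2.07. Those of 1426142_a_at were 417 and 129.96, at -1.68 the smallest difference of the 4 triadin probe sets with both signals over the floor.

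Low signals limited the remaining pair of triadin probe sets. For 1451940_x_at the B6 ES signal was 41.2 and the EiPS signal 8.37, under the floor, so it was at least 1.59-fold lower. For 1426134_at both signals, 24.0 and 1.08, were under the floor and no fold is given. With the mean over the Trdn probe sets in place of the brightest one, the difference was -1.79. That mean counts 1451940_x_at at its bound and leaves out 1426134_at, so it is itself a bound.

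Casq1 encodes calsequestrin of fast skeletal muscle, the protein that binds calcium inside the store. Its signal was 2601 in B6 ES tumours and 698 in EiPS tumours, 3.73-fold lower. Atp2a1 encodes SERCA1, the pump that refills the store in fast fibres. Its signal was 5001 in B6 ES tumours and 884 in EiPS tumours, which left 17.7% of the B6 ES value, 5.66-fold lower. Ordered from the lowest difference of the 10962 compared genes, Atp2a1 was at place 7 and Trdn at place 10.

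Pvalb encodes parvalbumin, the soluble calcium buffer of fast fibres, which is also made by some inhibitory neurons. Its signal was 383 in B6 ES tumours and 211 in EiPS tumours, 1.81-fold lower. Pvalb was the 1 gene of the 7 that did not reach 2-fold, and it lay at place 491 from the lowest difference. Its difference of -0.86 was larger than the SD of 0.34 among probe sets of the same gene in its signal range. That SD leaves out variation between tumours, arrays and labelling, so it does not test the difference.

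In order of their differences, the genes ran from Atp2a1 (-2.50) and Trdn (-2.43) through Casq1 (-1.90), Cacng1 (-1.66), Cacna1s (-1.40) and Ryr1 (-1.04) to Pvalb (-0.86). Neighbours in this order were 0.07 to 0.53 apart, and most of these gaps were within the SD of 0.40 among probe sets of the same gene. The widest gap, between Trdn and Casq1, depends on how the Trdn probe sets are used: with their mean, at -1.79, Trdn came after Casq1. That mean counts 1451940_x_at at its bound of -0.67. The Trdn probe sets over the floor on both arrays ran from -2.43 to -1.68. The gap of 0.36 between Cacna1s and Ryr1 was under the SD over all signals and over that for signals from 100 to 1000 (0.34). The SD is that of 1 difference, whereas a gap holds the spread of 2, so the SD understates the spread of a gap. Atp2a1 and Trdn were 0.07 apart, and Ryr1 and Pvalb 0.19 apart. Between the ends of the order, Atp2a1 lay 1.64 below Pvalb and 1.46 below Ryr1. The pump and the store's anchor were thus lower by a larger factor than the release channel itself, as read from 1 array in each group. Of the 12 probe sets, 11 were compared, and 9 of these were at least 2-fold lower (3.25% of all compared probe sets) and 4 at least 4-fold lower (0.263%).

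**Figure D2:**
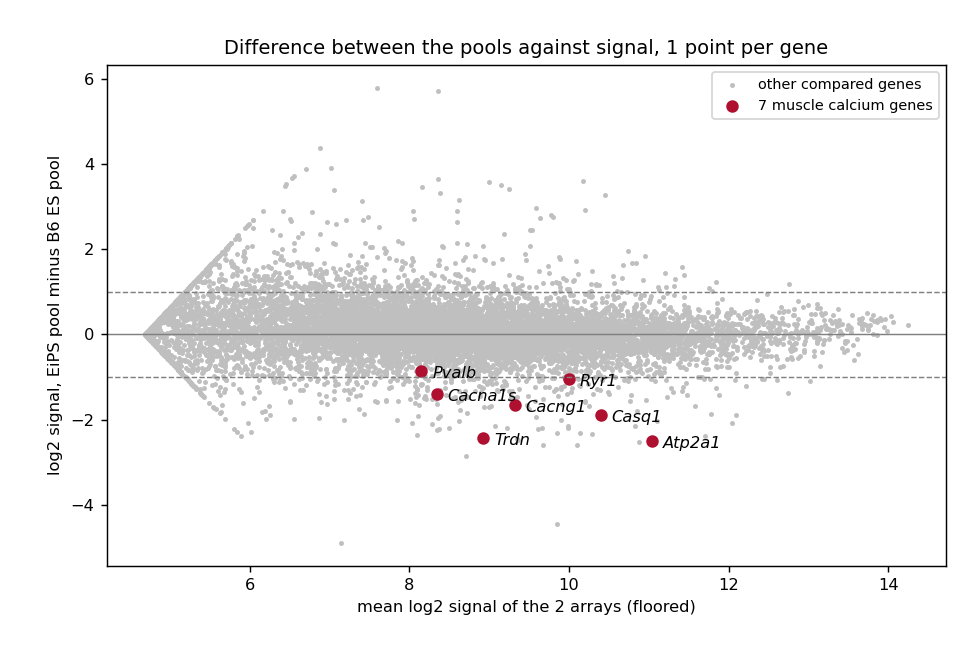
Log2 difference between the pools (EiPS minus B6 ES) against the mean log2 signal of the 2 arrays, 1 point per compared gene (10962 genes), with signals under the floor set to it and dashed lines at 2-fold. The 7 muscle calcium genes (large points) all lie below 0, from -0.86 for Pvalb to -2.50 for Atp2a1.

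Genes whose products work beside the 7 were lower in the EiPS pool in most cases. The lists of partners, kept by role, hold 28 other genes, of which 24 could be compared and 4 (Stac3, Jsrp1, Srl and Mrln) had no probe set with their symbol alone. Of the 24, 21 were lower and 3 higher (22 and 2 with equal-median or loess scaling, which turned Fkbp1a). At least 2-fold lower were 8 (9 with quantile or loess scaling, 10 with equal medians), and 1 was at least 2-fold higher. Over all compared genes these shares were 3.05% and 5.79%. The median difference of the 24 was -0.65, beside 0.07 for all compared genes. Hrc (-1.76) and Sln (-1.68) had differences as large as that of Cacng1.

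Among the partners of the voltage sensor, Cacnb1, the beta subunit of the skeletal channel, read 524 in B6 ES tumours and 213 in EiPS tumours, 2.46-fold lower. A second Cacnb1 probe set differed by -0.50. The channel subunits Cacng6 and Cacna2d1 were 1.93-fold and 1.46-fold lower. All 3 compared genes of this list were lower. With the deposited scaling only Cacnb1 reached 2-fold by its brightest probe set, whereas 2 of the 3 did with quantile, equal-median or loess scaling. A second Cacng6 probe set differed by -1.10.

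Of 6 compared partners of the release channel, 5 were lower and 1 reached 2-fold. Tmem38a, a potassium channel of the store membrane abundant in muscle, read 593 in B6 ES tumours and 279 in EiPS tumours, 2.12-fold lower. Its widely expressed relative Tmem38b was 1.62-fold lower. Fkbp1b, a binding protein of ryanodine receptors, was 1.51-fold lower. Fkbp1a, which stabilises ryanodine receptors and is made in most cells, differed by 0.02, but those of its probe sets that exceeded the floor lay between -0.40 and 0.22.

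Asph, whose gene also yields the triad protein junctin, was 1.23-fold lower by its brightest probe set. Its 5 probe sets ranged from -0.27 to -1.28. Which of them detect junctin is not given in the sources used here.

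Of 4 compared partners listed with the store, 3 were at least 2-fold lower (2 with quantile or loess scaling). Hrc, a calcium-binding protein of the store, read 1337 in B6 ES tumours and 394 in EiPS tumours, 3.40-fold lower. Sypl2, a membrane protein of the triad, was 2.76-fold lower, from 451 to 163. Casq2, the calsequestrin of heart and slow muscle, read 2405 and 1192 in the same order, 2.02-fold lower. Calr, the calcium-binding chaperone of the endoplasmic reticulum in all cells, was nearly equal between the arrays, with 4856 and 4819 (a difference of -0.01, and 0.01 after quantile scaling).

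The pump's regulators were lower as well. Sln encodes sarcolipin, a small inhibitor of the pump, and its signal was 5477 in B6 ES tumours and 1714 in EiPS tumours, 3.20-fold lower. A second, dim Sln probe set was under the floor in the B6 ES pool and differed by at least 0.27 in the other direction. Pln, the phospholamban that inhibits the cardiac pump, was 1.80-fold lower at low signals of 69.3 and 38.5.

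Genes of the triad and tubule structure were divided. Cav3, the caveolin of muscle, and Ank1, an ankyrin with a small muscle form at the store membrane, were 2.23-fold and 2.12-fold lower. Bin1, which shapes the tubules, was 1.83-fold lower. The junctophilins Jph1 and Jph2, which tie tubule and store membranes together, had signals of at most 49.6 on either array and differences of -0.04 and -0.41. Dysf, the membrane repair protein dysferlin, differed by -0.37. Mtm1, the phosphoinositide phosphatase myotubularin, went the other way: its signal was 312 in B6 ES tumours and 1719 in EiPS tumours, 5.50-fold higher. Of its 3 probe sets a second was higher by 1.80 and the third lower by 0.21 (a log2 difference of -0.21).

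**Figure D3:**
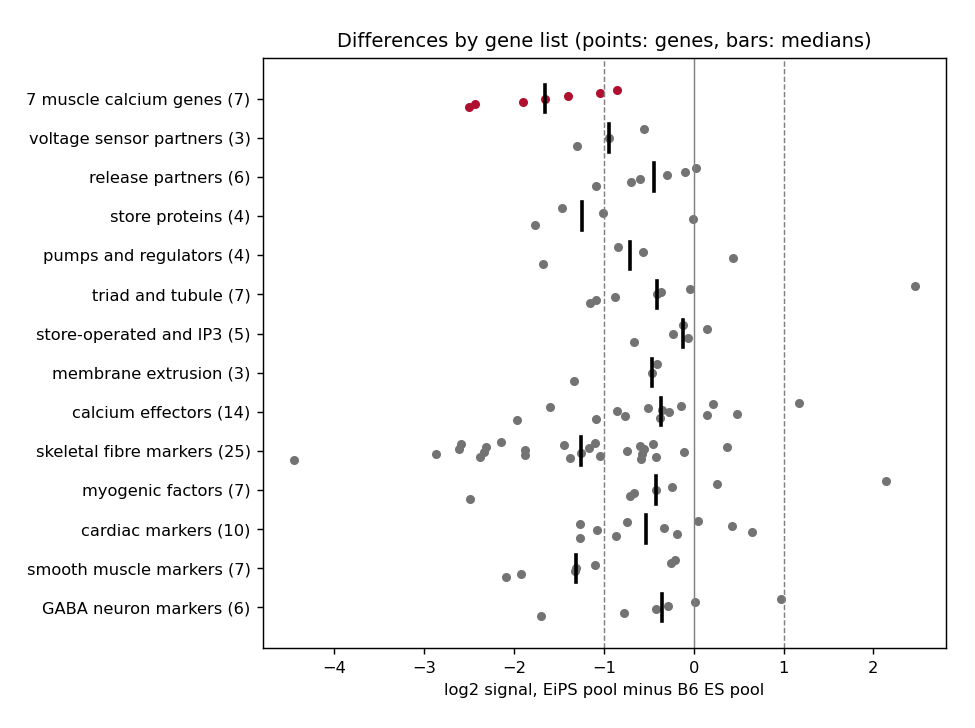
Log2 difference between the pools (EiPS minus B6 ES) of every compared gene in each list (points, with the number of genes in brackets), with the list's median as a black bar and dashed lines at 2-fold; genes under the floor on 1 array are drawn at their bound. The 7 muscle calcium genes lie between -2.50 and -0.86, and Mtm1, at 2.46, is the point farthest to the right in the triad and tubule list.

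Most of the 7 genes have relatives that are used in heart, smooth muscle or neurons, and these were compared within each family. Atp2a2, the pump of heart, slow muscle and most other cells, read 4107 in B6 ES tumours and 2766 in EiPS tumours. Its difference of -0.57 was smaller than that of Atp2a1 by 1.93 (the difference of Atp2a1 minus that of Atp2a2 was -1.93). The 4 probe sets of Atp2a2 ranged from -1.05 to 0.16. Atp2a3, the pump of blood cells and several epithelia, was 1.36-fold higher.

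The ryanodine receptors were less divided. Ryr2, the release channel of the heart, was 1.58-fold lower and Ryr3, a form found in brain and developing muscle, 1.33-fold lower, at signals of at most 179. The difference of Ryr1 minus that of Ryr2 was -0.38, close to the SD among probe sets of the same gene (0.40 over all signals and 0.34 from 100 to 1000). A second Ryr3 probe set was higher by at least 0.28, with its B6 ES signal under the floor.

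For the voltage sensor the relatives were higher or nearly level. Cacna1c, the pore subunit in heart, smooth muscle and neurons, read 64.2 in B6 ES tumours and 100.2 in EiPS tumours, 1.56-fold higher. Its difference of 0.64 stands beside an SD of 0.54 among probe sets of the same gene at signals under 100. Cacna1d, found in neurons and endocrine cells, differed by 0.04, and by -0.10, -0.08 and -0.06 after quantile, equal-median and loess scaling. The difference of Cacna1s minus that of Cacna1c was -2.05.

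Among relatives of Cacng1, those of neurons included genes with differences as large as its own. Cacng2 and Cacng3, which serve glutamate receptors in neurons, were 3.35-fold and 3.18-fold lower, beside 3.16-fold for Cacng1. Cacng4 and Cacng7 differed by 0.04 (-0.08 with equal medians) and 0.27. Casq2 had a smaller difference than Casq1, -1.01 beside -1.90.

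Of other soluble calcium buffers, Calb2 (calretinin), a marker of certain neurons, read 774 in B6 ES tumours and 167 in EiPS tumours, 4.63-fold lower. Calb1 (calbindin) was 2.41-fold lower. Both had larger differences than Pvalb. Of 8 listed genes of inhibitory neurons, which can express Pvalb, 6 could be compared, 4 were lower and 2 higher (5 and 1 under the other scalings, which turned Kcnc1), and their median difference was -0.36. Slc32a1, which loads the transmitter GABA into vesicles, was 3.25-fold lower and Gad1, which makes it, 1.71-fold lower, whereas Lhx6, a regulator of interneurons that express parvalbumin, was 1.97-fold higher at signals of 37.0 and 72.7. Erbb4 was under the floor on both arrays, and the list's summed signal was 4285 in B6 ES tumours and 2451 in EiPS tumours. The part of neurons in the Pvalb difference was not tested.

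**Figure D4:**
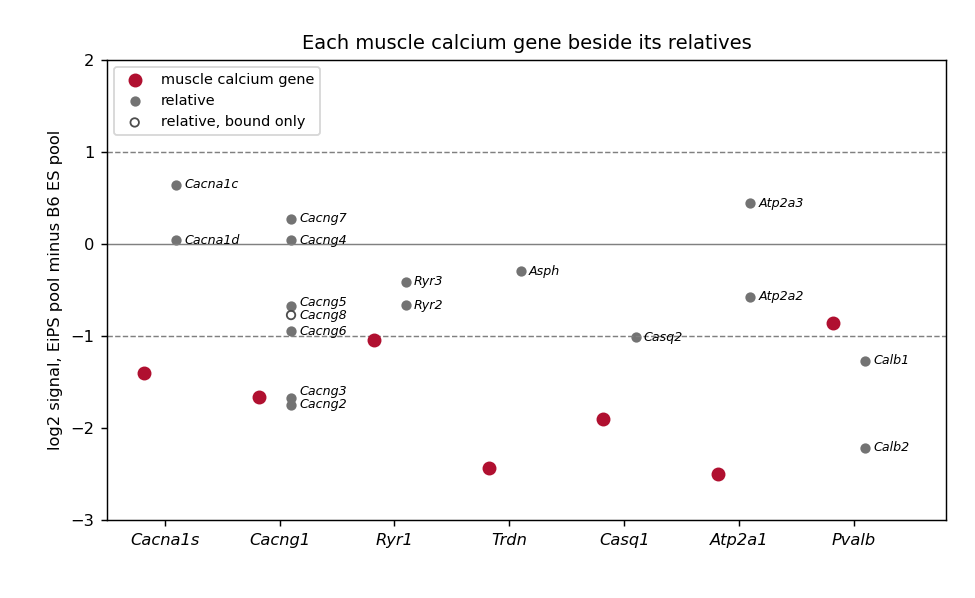
Log2 difference between the pools (EiPS minus B6 ES) of each of the 7 muscle calcium genes (large points) beside its listed relatives (small points; an open point is a bound), with dashed lines at 2-fold. Atp2a1, Trdn, Casq1, Cacna1s and Ryr1 lie below all of their relatives shown, while Pvalb lies above Calb1 and Calb2.

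Skeletal muscle markers differed in the same direction as the 7 genes. Of 26 listed fibre markers, 25 had a probe set and all 25 could be compared; 24 were lower in the EiPS pool, 16 at least 2-fold and 8 at least 4-fold, with a median of -1.26. None of them was under the floor, and their summed signal was 152207 in B6 ES tumours and 76971 in EiPS tumours, 50.6%. The summed signal of the 7 calcium genes was 12243 and 3273 in the same order, 26.7%. Both sums weigh the brightest genes most, and Atp2a1 alone read 5001 and 884. Atp2a1 and Trdn lay 1.24 and 1.17 below the fibre markers' median on the log2 scale, and 4 of the 25 markers had a lower difference than either. Casq1, Cacng1 and Cacna1s also lay below that median, by 0.64, 0.40 and 0.15 (log2), and Ryr1 and Pvalb lay above it by 0.22 and 0.40. The part of muscle content in the differences of the 7 genes was not tested.

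The fibre markers themselves were spread widely, and the 7 genes lay inside their range. Myh4, the myosin of the fastest adult fibres, had a difference of -4.45, and Tmod4, Pygm and Mb had -2.87, -2.61 and -2.59. At the other end Myh7, the slow and cardiac myosin, was 1.29-fold higher. A list of myogenic regulators and an adhesion gene of muscle cells had a median of -0.42. Of its 7 genes, 5 were lower (6 after quantile scaling, which turned Pax7). Myf6, which acts late in fibre differentiation, was 5.62-fold lower and Myog, which acts at its start, 1.33-fold lower. Pax3, a factor of muscle progenitors and neural tissue, was at least 4.41-fold higher, from a B6 ES signal under the floor. A second Pax3 probe set was higher by at least 0.83 (log2), also from a B6 ES signal under the floor.

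Markers of the other muscle types were measured because Trdn, Casq2 and the pumps are also used there. Of 10 cardiac markers, 7 were lower (8 under the other scalings, which turned Myl7) and 3 of these at least 2-fold, with a median of -0.53 and a summed signal of 27329 in B6 ES tumours and 18983 in EiPS tumours. Actc1, Myl4 and Tnnt2, which developing skeletal muscle also expresses, made up 97.9% and 97.7% of those sums. The atrial hormone gene Nppa was under the floor in the EiPS pool, and the chamber markers Myh6, Myl2, Myl7 and Tnni3 had signals of at most 152 on either array. All 7 smooth muscle markers were lower, 5 at least 2-fold, with a median of -1.31 and a summed signal of 14450 and 10107. Their part in the differences of the 7 genes was not tested.

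**Figure D5:**
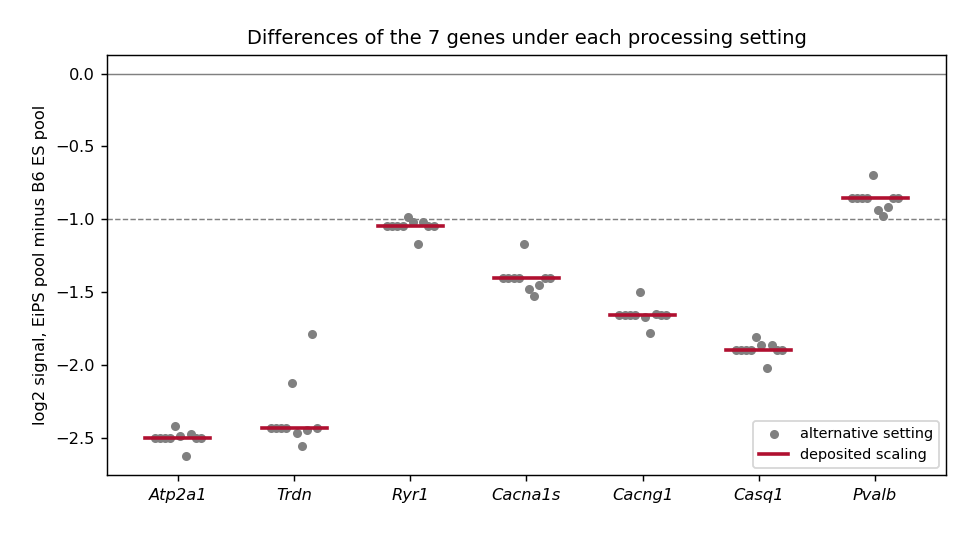
Log2 difference between the pools (EiPS minus B6 ES) of each of the 7 genes with the deposited scaling and brightest probe set (lines) and under 10 alternative settings of floor, pseudocount, scaling and probe sets (points). Every point lies below 0, and the widest range, from -2.56 to -1.79, is that of Trdn.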

How the data were processed

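The authors deposited linear intensity values, 1 per probe set, from Affymetrix Expression Console and MAS5 (per the submitters' processing notes, with no version or settings in the sources used here). Both arrays had a 2% trimmed mean of 500.2, so their scaling was kept. Subtraction of mismatch signal by MAS5 leaves dim probe sets noisy, and scaled signals show relative amounts. Groups came from the labels.

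Of 22690 probe sets, 20380 had 1 gene symbol, 691 several and 1555 none, beside 64 controls; 20351 of the single symbols were matched by identifier to RefSeq (GRCm38.p6, names and promoters only). A gene was represented by its brightest probe set (mean log2 signal over both arrays). The floor was the 90th percentile of 71 probe sets of smell and taste receptors. A gene under it on 1 array gives a bound, and under it on both is not compared. The procedure was tested on simulated data. Python 3.11.15, pandas 2.3.3 and statsmodels 0.14.6 were used, and no test was run with 1 array per group.

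The members and lists were chosen with earlier results of these data known. Named were all 7 members, any gene of the calcium lists, up to 4 genes per other list by size of difference (Myh7, Myog, Erbb4, Kcnc1, Actc1, Myl4, Myl7, Tnni3, Pax7, Phka1, Nfatc1 and most of the relatives were named after their values were seen), and the 5 genes nearest to the members' median signals. Alternatives were other floors, a pseudocount, other scalings and other uses of probe sets.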

Additional observations from a re-analysis of the deposited data

How the results depend on the processing

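All 7 genes stayed lower in the EiPS pool under each of 10 alternatives (a floor at the receptors' percentile 75 or 98 or at 100, no floor, log2(signal + 64), quantile, equal-median and loess scaling, the mean over probe sets, and no probe sets shared by several transcripts). Their median ranged from -1.78 to -1.50, and 5 or 6 were at least 2-fold lower; the 5 came with log2(signal + 64), where Ryr1 was at -0.98. With the mean over probe sets, which counts 1451940_x_at at its bound, Trdn was at -1.79, no longer 4-fold lower and no longer below Casq1. The number of all genes at least 2-fold lower was 334, and was 720 with no floor and 187 with log2(signal + 64). The number at least 2-fold higher was 635, and was 305 with a floor of 100, 1249 with no floor and 249 with log2(signal + 64). Quantile normalization gave 442 lower and 491 higher genes, and equal medians 456 and 500. The median of all genes was then 0.00014 and -0.06, in place of 0.07. No paired analysis was possible because each group has 1 array.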

Other observations

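Calcium genes outside the triad went both ways. Of 5 compared genes of store-operated entry and IP3-gated release, 4 were lower and none reached 2-fold, with a median difference of -0.11. Stim1, the store's calcium sensor, was 1.59-fold lower, while Orai1, the entry channel it opens, differed by -0.06. A second Orai1 probe set was higher by 0.68. Itpr2 and Itpr3, release channels gated by IP3, differed by -0.23 and 0.15. Another Itpr2 probe set was higher by at least 0.68, from a B6 ES signal under the floor, and the rest were lower. Of genes that export calcium across the surface membrane, the exchanger Slc8a1 was 2.51-fold lower by its brightest probe set and the pump Atp2b2 1.38-fold lower, and Slc8a2 was under the floor on both arrays. Other probe sets of Slc8a1 differed by -0.36 and by at least 0.04.

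Among 14 compared calcium effectors, 10 were lower and 4 higher (11 and 3 after quantile scaling, which turned Nfatc1), 3 at least 2-fold lower and 1 at least 2-fold higher, with a median of -0.36. Mylk2, the myosin light chain kinase of skeletal muscle, was at least 3.04-fold lower, from 78.5 in the B6 ES pool to 12.7, under the floor. The calcineurin-dependent factor Nfatc2 was 3.91-fold lower and its relative Nfatc4 was 2.26-fold higher, each by its brightest probe set. Other Nfatc2 probe sets differed by -1.01 and by a bound of -0.55, and another of Nfatc4 was higher by at least 0.25. Their remaining probe sets were under the floor on both arrays. The kinase subunit Camk2d was 2.13-fold lower and Phka1, a muscle subunit of phosphorylase kinase, 1.80-fold lower by its brightest probe set. Other Phka1 probe sets differed by -0.37 and -0.22.

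The 5 genes nearest to the median signals of the 7 genes (1138 and 360.5), by distance in log2 signal over the 2 arrays, were Syn2 (0.11), Ppp2r2b (0.14), Serpini1 (0.14), Ppp1r14c (0.16) and Cavin4 (0.22). Syn2, a synaptic vesicle protein, is a neuronal gene and Cavin4 a muscle gene, so nearness over 2 arrays does not sort genes by tissue.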
